A study of Mus musculus with 8 samples.

Results

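Mouse astrocytes kept for 32 days in a culture labelled MGS were compared by RNA sequencing with mouse astrocytes kept for 32 days in conventional culture, labelled CV. In the sample descriptions MGS is named Soft and CV is named Hard, and the labels do not spell out the letters MGS. The comparison rests on 4 of the 8 libraries of the series, 2 of MGS and 2 of CV, chosen by those titles and descriptions. The other 4 libraries come from the same kinds of culture at day 5. The labels give no treatment, genotype, strain or age of animal beside culture and day. They also do not say whether replicates are separate cultures or animals. A p-value here covers just the spread between libraries of a group, pooled over the 4 groups, and that spread may be technical.

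Astrocytes are the glial cells that clear glutamate and potassium around synapses, couple to each other through gap junctions and pass water and metabolites to and from blood vessels. Cells on a stiff surface pull on it through integrins and actin stress fibres, and the transcription factor SRF with its partner MRTF and the coactivators YAP and TAZ are known to respond to that tension. Cultures made from newborn brain are known to hold, beside astrocytes, some microglia and cells of the ventricle lining, the choroid plexus and the meninges.

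Levels are given in scaled TPM. TPM is a transcript's level relative to all transcripts of its library and per length, and it was rescaled here so that the median gene was equal between libraries. Of 23401 genes in the table, 14866 had at least 1 TPM in at least 2 of the 8 libraries and were tested with limma on log2(scaled TPM + 1), a scale that understates the differences of low genes. Every difference below is MGS minus CV at day 32 on that scale, given with its standard error after the sign ±. Where 4 levels are given as a pair against a pair, the first pair is MGS replicates 1 and 2 and the second is CV replicates 1 and 2. The words higher and lower mean higher or lower in MGS at a Benjamini-Hochberg adjusted p under 0.05 over all genes tested. Gene positions are copied from the deposited files and refer to mm10.

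The day 32 libraries held 4.69 and 4.61 gigabases of aligned sequence for MGS and 2.98 and 2.15 for CV, as read from the coverage and FPKM values. Across genes the MGS replicates correlated with r = 0.996 and the CV replicates with r = 0.981. The SD of the gene-wise log2 difference between replicates was 0.186 in MGS and 0.481 in CV, so CV was the less exact side of the comparison. The standard errors below pool all 4 groups, day 5 included, and so can understate the spread of CV. Without the rescaling the median of all genes stood at 0.56 (log2) in place of -0.0027, so each difference is relative to the median gene. Gfap, Aqp4, Slc1a3, Glul and Sox9, which define astrocytes, were present in all 4 libraries.

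At day 32, 10398 of 14866 genes passed the test, which is 69.9% of those tested. Of these, 5215 were higher (35.1% of tested) and 5183 were lower (34.9% of tested). The difference was at least 2-fold for 2745 of the higher genes and 2170 of the lower genes. The libraries of the cultures did not overlap for any of the 10398 genes, and they did not overlap for 85.5% of all genes tested. Statements below that the libraries of a called gene lay apart describe its levels and add nothing to its call. With so large a share of genes called, a list in which about 70% of members pass is like the rest of the transcriptome, and the lists below are to be read against these percentages.

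Transcript length moved with the difference between the cultures. Length, taken as the longest annotated transcript, was known for 14749 of the genes tested. In the eighth of genes with the shortest transcripts, from 57 to 1439 bases, the median difference was -0.73, and 54.8% of genes were lower and 17.7% higher. In the eighth with the longest transcripts, from 6262 to 123179 bases, the median was 0.83, and 9.49% were lower and 69.1% higher. The 6 eighths between them went up in order from -0.51 to 0.46. The CV replicates differed by length too: the median of replicate 1 minus replicate 2 was 0.52 in the shortest eighth and -0.31 in the longest. The same medians between the MGS replicates were 0.015 and -0.024. What produced the length dependence was not tested. A corrected difference was computed for every gene by removing from each library a smooth curve on transcript length and GC content, which also removes any difference between the cultures that follows length. The correction left medians of -0.22 in the shortest eighth and -0.04 in the longest. After it, 10710 of 14749 genes (72.6%) were called, 4626 higher (31.4%) and 6084 lower (41.3%), around a median of all genes of -0.10. Of the 10398 genes first called, 8590 had the same call after the correction, 210 were called in the opposite direction, 1528 were no longer called and 70 had no length. Corrected medians stand below beside the gene lists. In TPM as deposited the differences shift up with the median gene, and list counts on that scale are given where they move most.

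**Figure D1:**
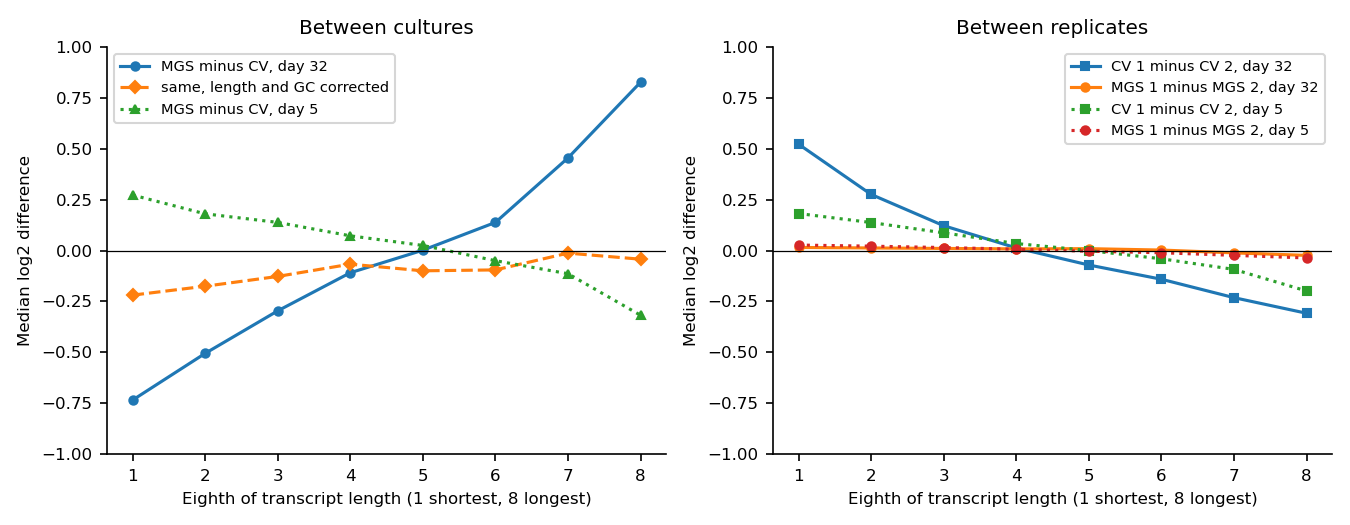
Median log2 difference of genes in eighths of transcript length, between cultures on the left and between replicates of a culture on the right. The MGS minus CV median at day 32 climbs from -0.73 to 0.83, that of day 5 runs the other way, and the 2 CV libraries of day 32 differ from 0.52 to -0.31 while the MGS libraries stay near 0.

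The 12 genes with the largest rises were Cldn11, Myoc, Ptgds, Gjb2, Gjb6, Rps27, Cdh1, Thsd4, Enpp2, Odf3b, Tmem212 and Tnr. Ptgds, the prostaglandin D synthase of glia and meninges, had levels of 8352 and 8279 against 99.8 and 55.5. Cldn11, a tight junction claudin of myelin and of the arachnoid (chr3:31149920-31164326), had levels of 458 and 473 against 2.47 and 2.41, a difference of 7.08 ± 0.21 (limma, adjusted p = 8.42e-07). Both CV libraries lay far below both MGS libraries for each of these genes, which were chosen for no overlap. The connexins Gjb2 and Gjb6, gap junction proteins of astrocytes and meninges whose genes are neighbours at chr14:57098602-57104702 and chr14:57123301-57133611, moved together. Gjb2 had levels of 194 and 194 against 1.29 and 1.19, a difference of 6.44 ± 0.092, and Gjb6 had 105 and 105 against 0.914 and 0.357, a difference of 6.04 ± 0.22. Myoc, which encodes the secreted protein myocilin (chr1:162639150-162649694), had 228 and 229.7 against 1.14 and 0.869. Cdh1, the epithelial cadherin, had 83.5 and 82.1 against 0.509 and 0.206. These genes were close to absent in CV. Enpp2, the secreted enzyme autotaxin, had 190.0 and 186 against 2.36 and 3.19, and Thsd4, a protein of matrix microfibrils, 80.8 and 85.8 against 0.531 and 0.566. Tmem212 and Odf3b belong to cells with motile cilia. In MGS Tmem212 reached 50.7 and 47.5 and Odf3b 67.8 and 71.7, while in CV Tmem212 was listed at 0 in both libraries and Odf3b stood at 0.973 and 0. The level of Rps27, 1031 and 889 against 16.6 and 11.6, is uncertain because the gene has near-identical copies.

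The 12 genes with the largest falls were Prl2c2, Prl2c3, Cd72, Iapp, Slco4a1, Cd34, Sprr2b, Fxyd2, Crct1, Ly86, Lyz1 and Slamf9. Prl2c2 and Prl2c3, near-identical prolactin-family genes known as proliferins, are uncertain as single genes. Both were listed at 0 in both MGS libraries, with CV levels of 298 and 263 for Prl2c2 and 171 and 144 for Prl2c3. Iapp, the islet amyloid peptide, and Sprr2b, a small proline-rich protein of squamous epithelium, were also listed at 0 in both MGS libraries, with CV levels of 86.9 and 66.6 for Iapp and 58.2 and 40.0 for Sprr2b. Crct1, another gene of squamous epithelium, had 0.172 and 0 against 58.5 and 36.0. These genes were found almost solely in CV. Cd72, a receptor of B cells and macrophages (chr4:43447724-43454626), had levels of 4.37 and 3.97 against 867 and 643, a difference of -7.18 ± 0.16 (limma, adjusted p = 7.20e-07). Ly86, a partner of a Toll-like receptor relative on myeloid cells, had 6.47 and 5.68 against 273 and 234. Slamf9, a receptor of myeloid cells, had 1.93 and 1.74 against 112 and 80.0. Cd72, Ly86, Slamf9 and Lyz1, a lysozyme gene with 3.17 and 6.82 against 229 and 176 and a close copy in Lyz2, are all genes of macrophages or their relatives. Cd34, a surface sialomucin of progenitor and endothelial cells, had 1.32 and 1.16 against 105 and 118. The organic anion transporter Slco4a1 had 0.493 and 0.469 against 103 and 96.7, and Fxyd2, a regulator of the sodium pump, 2.79 and 2.12 against 214 and 114. After the length and GC correction the differences of Cd72, Ly86, Cd34 and Slco4a1 were -7.06, -5.06, -5.55 and -6.09.

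**Figure D2:**
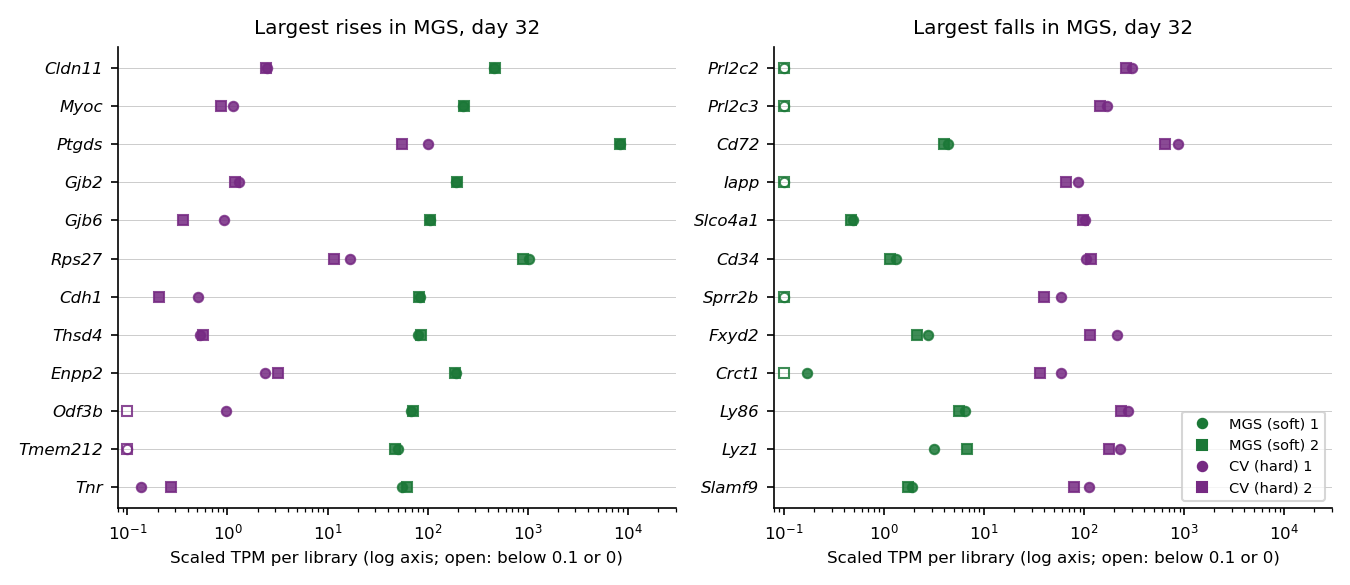
Scaled TPM in each of the 4 libraries of day 32, on a log axis, for the genes with the largest rises (left) and falls (right); open symbols are values below 0.1 or 0. Green MGS points and purple CV points lie well apart for each of the 24 genes shown, which were chosen for no overlap. The replicates of most genes lie close together.

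Transcripts of middle length, from 2115 to 4751 bases, where the median difference was nearest to 0, also held large differences. In that range the largest rises that the correction left in place were in Gjb2, Cdh1, Enpp2, Slc6a20a, Ak7, Ntsr2, Slc6a13 and Slc13a4, and the largest falls in Cd72, Slco4a1, Cd34, Ly86, Klhdc8a, Clec12a, Adam8 and Cnn1. Slc6a20a, a proline transporter, had levels of 46.9 and 51.3 against 0 and 0.0689. Slc6a13, a transporter of GABA and taurine, had 48.6 and 51.7 against 0.310 and 0, and Slc13a4, a sulphate transporter, 85.1 and 84.9 against 0.921 and 1.02. All 3 carriers are known from meninges and choroid plexus. Ak7, an adenylate kinase of motile cilia, had 88.4 and 83.6 against 1.10 and 0.680. Adam8, a membrane metalloprotease of myeloid cells, had 10.7 and 10.3 against 299 and 314, and Clec12a, a lectin receptor of myeloid cells, 2.80 and 2.36 against 110.2 and 86.8. Klhdc8a, a kelch-domain gene, had 7.43 and 7.52 against 295 and 234. That the cultures did not overlap was a condition for choosing these genes. The corrected differences were 5.70 for Slc6a13, 5.39 for Slc13a4, -4.86 for Adam8 and -5.23 for Klhdc8a.

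Genes of mature, homeostatic astrocytes were for the most part higher in MGS. Of 39 members tested, 28 were higher, 5 were lower and 6 were not called, with a median difference of 1.33. After the length and GC correction 30 were higher and 6 lower, with a median of 1.2996. Without CV replicate 1 the counts were 29 higher and 6 lower, and without CV replicate 2 they were 28 and 6.

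Ntsr2, a neurotensin receptor of astrocytes (chr12:16653470-16660236), had levels of 137 and 148 against 2.43 and 1.85, a difference of 5.52 ± 0.15 (limma, adjusted p = 8.31e-07), which is 45.8-fold on this scale. The MGS replicates lay close together, and the cultures did not overlap for this gene, as for every called gene. Gja1 encodes connexin 43, the main astrocyte gap junction protein (chr10:56377300-56390419), and had levels of 1204 and 1135 against 87.0 and 105, a difference of 3.60 ± 0.14. Slc1a2, the glutamate transporter GLT-1 that marks mature astrocytes (chr2:102658683-102790784), had 64.1 and 63.5 against 8.31 and 7.05, and its difference of 2.90 ± 0.13 became 1.72 after the correction. Aqp4, the water channel of astrocyte end-feet (chr18:15389394-15403684), had 669 and 664 against 91.5 and 154, a difference of 2.48 ± 0.25. CV replicate 1 was the lower of the CV libraries for Aqp4, and both lay below MGS. S100b, a calcium-binding protein, had 103 and 95.6 against 9.66 and 7.75. Smaller differences were measured for Slc1a3, the glutamate transporter GLAST (1.05), for the transcription factor Sox9 (0.62) and for Glul, glutamine synthetase (0.40). Their corrected differences were 0.77, 0.39 and 0.48. Among other members, the GABA transporter Slc6a11 differed by 3.48, the pump subunit Atp1b2 by 2.42, and the glycogen-targeting subunit Ppp1r3c by 3.18.

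The 5 lower members were Aldh1l1, Slco1c1, Gldc, Cbs and Htra1. Aldh1l1, a folate enzyme used as a general astrocyte marker (chr6:90550848-90599171), had levels of 127 and 129.6 against 335 and 278, a difference of -1.24 ± 0.14 (limma, adjusted p = 0.000244). Both CV libraries were above both MGS libraries. Cbs, which makes cystathionine, differed by -1.23, and Gldc, the glycine decarboxylase, by -0.74. The thyroid hormone carrier Slco1c1 and the protease Htra1 differed by -0.48 and -0.68. In TPM as deposited Slco1c1, Gldc and Htra1 stood at 0.13, -0.14 and -0.047 and were not called. The whole list gave 31 higher and 2 lower on that scale. Htra1 was also not called under quantile normalization (-0.060). Because these are bulk samples, fewer cells of a type and less RNA per cell cannot be told apart for any gene here.

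Markers of microglia moved with the astrocyte genes in the opposite direction. The 19 markers tested, described further on, summed to 1363 and 1342 scaled TPM in MGS and to 26696 and 21719.7 in CV. Their part in the astrocyte results was not tested. Aldh1l1, Cbs and Gldc stood higher in the same CV libraries in which Ntsr2, Gja1 and Aqp4 stood lower.

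Genes of neural stem cells and immature astrocytes divided. Of 23 tested, 11 were higher and 8 lower, with a median of 0.21 that was -0.13 after the correction. Prom1, which encodes prominin (chr5:43993622-44101736), had levels of 81.2 and 76.5 against 19.9 and 20.4, a difference of 1.92 ± 0.089 (limma, adjusted p = 3.80e-06). Sox4, a transcription factor of immature neural cells, had 81.8 and 89.7 against 22.0 and 27.1. Ptprz1, a receptor phosphatase of radial glia, had 133 and 132 against 25.5 and 40.9. Both MGS libraries lay above both CV libraries for each of these genes. The lower members included the fatty acid binding protein Fabp7 (-1.22), the Notch target Hes1 (-1.59), the transcription factor Pax6 (-1.32) and the matrix protein tenascin C, Tnc (-1.71).

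The cytoskeletal filament genes moved in opposite directions. Gfap, the filament protein by which astrocytes are stained (chr11:102887336-102897200), had levels of 7588 and 7578 against 981 and 867, a difference of 3.04 ± 0.22 (limma, adjusted p = 2.53e-05) or 8.21-fold. Vim, vimentin (chr2:13574311-13582826), had levels of 4957 and 5011 against 12233 and 9987, a difference of -1.15 ± 0.30 (limma, adjusted p = 0.0115), which turned to 0.25 under quantile normalization. Nes, nestin (chr3:87971093-87980451), had 212 and 210.0 against 586 and 510.2, a difference of -1.37 ± 0.12. Gfap was thus several times higher in MGS, whereas nestin was higher in CV. Lmna, the lamin gene whose protein is known to scale with tissue stiffness, had 113 and 120.3 against 407 and 275, a difference of -1.51 ± 0.21. Synm, synemin, had 33.3 and 34.3 against 3.92 and 2.81, and Krt18, a keratin, 6.48 and 6.63 against 0.795 and 0. The other keratin of that pair, Krt8, and the linker plectin, Plec, differed by 2.25 and 1.43 (corrected, 2.52 and -0.073). The lamin Lmnb1 differed by -0.42, which was 0.21 in TPM as deposited. Over the whole list of 10 filament and lamin genes, 5 were higher and 4 lower, and the median of 0.72 became -0.10 after the correction.

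The lists of reactive astrocytes showed no common direction. In the pan-reactive list 5 of 13 were higher and 5 lower, with a median of 0.012 that was -0.27 after the correction and -0.084 without CV replicate 1. In the list named A1 4 of 12 were higher and 6 lower, with a median of -0.40 that was -0.46 after the correction and 0.15 in TPM as deposited. In the list named A2 5 of 11 were higher and 5 lower, with a median of -0.04 that was -0.30 after the correction, 0.42 in TPM as deposited, 0.13 under quantile normalization and 0.21 without CV replicate 2. Serpina3n, a protease inhibitor (chr12:104406708-104414329), had levels of 340.5 and 329 against 26.5 and 28.3, a difference of 3.57 ± 0.089 (limma, adjusted p = 7.20e-07). C3, the central complement protein, had 203 and 210.1 against 54.3 and 59.3, a difference of 1.85 ± 0.12. Both were higher in MGS. Timp1, an inhibitor of matrix proteases, went the other way with 21.0 and 17.9 against 246 and 147, a difference of -3.23 ± 0.23. Cd14, a lipopolysaccharide co-receptor that microglia also make, had 19.3 and 16.9 against 533 and 414. Lcn2, a secreted siderophore binder of strongly reactive astrocytes, was lower, with 3.29 and 2.77 against 12.4 and 10.8. Its level was low in all 4 libraries. Other called members on the higher side were Aspg (2.37), Tgm1 (2.35), Ptgs2, the prostaglandin synthase COX-2 (1.35), the guanylate-binding protein Gbp2 (1.22), the chemokine Cxcl10 (0.96) and the GTPase Iigp1 (0.94). On the lower side were the copper carrier Cp, ceruloplasmin (-1.78), the calcium-binding protein S100a10 (-1.48), the matrix protein Fbln5 (-2.77), the pentraxin Ptx3 (-2.70), the proteoglycan Srgn (-1.88) and the cytokine Clcf1 (-1.74). Cd44, the hyaluronan receptor, had 67.9 and 67.3 against 62.7 and 75.5 and did not pass the test (adjusted p = 0.865), but was 0.60 higher in TPM as deposited and differed by -0.51 after the correction. Stat3, a transcription factor of astrocyte reactivity, had 124 and 124 against 80.7 and 102, a difference of 0.45 ± 0.13 (adjusted p = 0.017) that became -0.15 after the correction (adjusted p = 0.11).

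**Figure D3:**
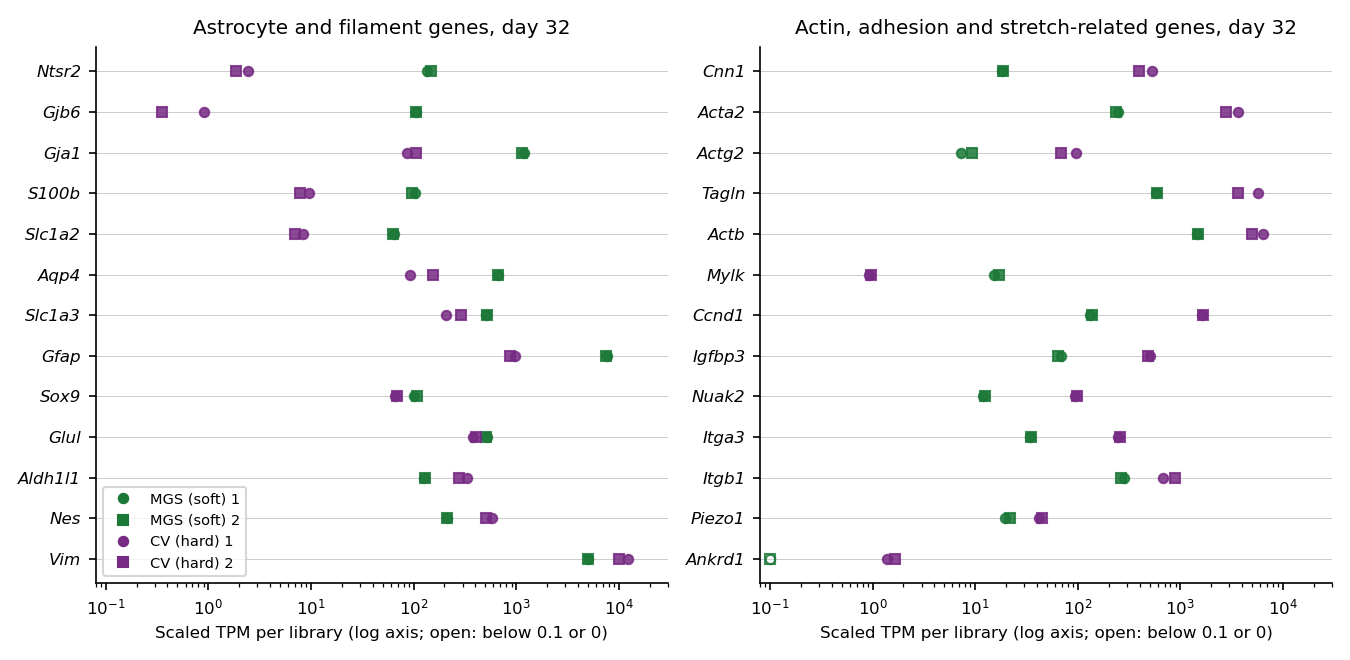
Scaled TPM in each of the 4 libraries of day 32, on a log axis; open symbols are values below 0.1 or 0. On the left, Gja1, Gfap, Aqp4 and most other astrocyte genes shown lie higher in MGS (green). Aldh1l1, Nes and Vim (the last turned by quantile normalization) lie higher in CV (purple). On the right, most of the actin, adhesion, tension-related and cell cycle genes picked for display lie higher in CV. They do not stand for all their lists. Integrin and focal adhesion genes gave 9 higher and 10 lower of 25, and mechanosensitive channels 7 higher and 3 lower of 11.

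Genes of the contractile actin apparatus, most of them known targets of SRF and MRTF, were lower in MGS with few exceptions. Of 28 tested, 24 were lower, 1 was higher and 3 were not called, against 34.9% lower among all genes. The median difference was -1.47. It was -1.64 after the length and GC correction, with 25 lower, and -0.85 in TPM as deposited, with 18 lower.

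Several of these genes carry near their start the CArG box, the sequence that SRF is known to bind. RefSeq promoter windows, from 250 bases before to 50 after the annotated start in GRCm38.p6, were at hand for 24 of the 28 members. A CArG box, searched on both strands, was found for 8 of the 24. It was found for 1.54% of tested genes with such a window and for 1.81% of all 27025. Most members were listed as known SRF targets, so a larger share of boxes was built into the choice of members. Among tested genes with a window the share with a box was 1.43% of the higher, 1.83% of the lower and 1.33% of those not called. A match is a description of the letters and shows no binding. The stretches around the box are printed for the 6 of the 8 genes that were lower in MGS, so that the boxes can be compared. They run 5′ to 3′ in the direction of the gene, with the box in capitals. They belong to cytoplasmic gamma actin (Actg1, chr11:120348546-120348615, minus strand), calponin 2 (Cnn2, chr10:79988514-79988583, plus strand), the LIM protein Fhl2 (chr1:43163962-43164022, minus strand), Filip1l (chr16:57549150-57549219, plus strand), the regulatory myosin light chain Myl9 (chr2:156775273-156775342, plus strand) and the gene of SRF itself (Srf, chr17:46556205-46556274, minus strand).
Actg1: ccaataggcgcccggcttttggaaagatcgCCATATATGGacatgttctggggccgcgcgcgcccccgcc
Cnn2: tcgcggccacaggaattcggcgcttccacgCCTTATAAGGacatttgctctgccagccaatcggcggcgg
Fhl2: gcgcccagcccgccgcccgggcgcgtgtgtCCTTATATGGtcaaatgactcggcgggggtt
Filip1l: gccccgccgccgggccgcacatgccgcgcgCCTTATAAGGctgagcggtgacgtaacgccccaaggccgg
Myl9: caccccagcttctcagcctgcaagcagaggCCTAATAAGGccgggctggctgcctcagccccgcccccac
Srf: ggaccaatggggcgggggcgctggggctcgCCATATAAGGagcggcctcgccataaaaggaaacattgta
The box began 90 bases before the annotated start in Actg1, 56 in Cnn2, 31 in Fhl2, 62 in Filip1l, 161 in Myl9 and 82 in Srf. Srf held another box 62 bases before its start, within the printed stretch, and Fhl2 held another before a different start. Vcl, vinculin, and Fhl1, the other 2 genes with a box, were not called, with differences of -0.18 and -0.23, though Vcl was lower after the correction (-0.64). The third member that was not called was Palld, palladin (0.53, or -0.26 without CV replicate 1 and 1.31 without CV replicate 2).

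Of the genes with a printed box, Myl9 had levels of 178 and 179 against 1916 and 1207, a difference of -3.08 ± 0.23 (limma, adjusted p = 3.17e-05). Cnn2 had 159.7 and 159.8 against 1401 and 1107, a difference of -2.95 ± 0.15. Actg1 had 1335 and 1362 against 3807 and 3161, a difference of -1.36 ± 0.20. For these 3 genes the lower CV library was more than 2-fold above the higher MGS library. Srf had 32.9 and 37.2 against 61.3 and 54.0, a difference of -0.70 ± 0.14. Fhl2 and Filip1l differed by -0.96 and -1.36. In TPM as deposited Srf and Filip1l stood at -0.082 and -0.82 and were not called. Actg1 stood at -0.31 under quantile normalization and was not called there. The cultures did not overlap for any of the 6, as for every called gene.

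Large falls in the list were in smooth muscle genes. Cnn1, calponin 1 (chr9:22099253-22109221), had levels of 18.1 and 18.5 against 527 and 392, a difference of -4.56 ± 0.15 (limma, adjusted p = 1.01e-06), so that it was 23.6-fold higher in CV. Acta2, smooth muscle actin (chr19:34240336-34255373), had 245 and 238 against 3653 and 2809, a difference of -3.72 ± 0.19. Tagln, transgelin (chr9:45929628-45936058), had 581 and 594 against 5734 and 3616, a difference of -2.95 ± 0.25. CV replicate 1 was the highest library for each of the 3, and both CV libraries were above both MGS libraries. Actg2, the enteric smooth muscle actin, differed by -3.16. Actb, beta actin (chr5:142903116-142906724), had 1456 and 1499 against 6406 and 5028, a difference of -1.94 ± 0.23, so it did not hold a constant level between the cultures. The tropomyosins Tpm1, Tpm2 and Tpm4 differed by -2.37, -3.12 and -1.59, and the stress fibre proteins Zyx and Pdlim7 by -1.87 and -1.83. Mylk, the myosin light chain kinase, was the higher member, with 15.3 and 17.0 against 0.914 and 0.968, a difference of 3.14 ± 0.12 and of 2.29 after the correction.

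Mural cells, the contractile cells of vessels, also make Acta2, Tagln and Cnn1. Of 8 mural markers tested 7 were higher in MGS and 1 was lower, with a median of 0.95. After the length and GC correction 5 were higher and 1 lower, with a median of 0.73. The summed level of the markers was 155 and 161 in MGS and 93.1 and 106 in CV. The list shares Cspg4 with the oligodendrocyte precursors, and the part of mural cells in the contractile result was not tested. Vtn, vitronectin, and Anpep, an aminopeptidase of pericytes, differed by 3.47 and 1.59, and the lower one was the adhesion molecule Mcam (-1.77).

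Targets of YAP and TAZ divided. Of 24 tested, 11 were lower and 6 higher, with a median of -0.078 that was 0.54 in TPM as deposited and 0.20 without CV replicate 2. After the length and GC correction 16 were lower and 3 higher, with a median of -0.65. Ctgf and Cyr61, matricellular proteins used as the standard readout of YAP (chr10:24595442-24598682 and chr3:145646971-145649985), were lower. Ctgf had levels of 191 and 195 against 853 and 788, a difference of -2.08 ± 0.11 (limma, adjusted p = 5.81e-06). Cyr61 had 699 and 710.0 against 1649 and 1555, a difference of -1.18 ± 0.14 (limma, adjusted p = 0.000337). Under quantile normalization Cyr61 stood at -0.16 and was not called. The cultures did not overlap for either gene, as for every called gene. Nuak2, a kinase induced by YAP, had 11.9 and 12.4 against 94.8 and 98.4, and Igfbp3, an IGF binding protein, 68.2 and 64.8 against 509 and 484. Ankrd1, another such target, was listed at 0 in both MGS libraries and stood at 1.38 and 1.65 in CV. Among the higher members were Nt5e, the ectonucleotidase CD73 (2.52), and the growth factor Tgfb2 (1.69). Yap1 itself had 86.4 and 89.0 against 70.0 and 68.5, a difference of 0.34 ± 0.082 that became -0.10 after the correction (adjusted p = 0.468). Wwtr1, which encodes TAZ, had 99.6 and 101 against 76.2 and 88.8 and was not called (0.28, adjusted p = 0.0852).

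Integrin and focal adhesion genes divided too, with 9 of 25 higher and 10 lower, a median of 0.032, and 4 higher and 15 lower with a median of -0.46 after the correction. Itga3, a laminin-binding integrin chain (chr11:95044482-95076714), had levels of 34.0 and 35.3 against 245 and 257, a difference of -2.82 ± 0.094 (limma, adjusted p = 1.13e-06). Itgb1, the chain shared by most matrix-binding integrins, had 283 and 265 against 676 and 878, a difference of -1.49 ± 0.15. Itgb5, a vitronectin receptor chain, had 109 and 111 against 500.3 and 413. CV was the higher culture for all 3. Itgb8, the astrocyte chain that activates latent TGF-beta, was higher in MGS with 48.3 and 49.4 against 1.43 and 4.07, a difference of 3.83 ± 0.36. Itgb4, a chain of a laminin receptor, had 15.5 and 17.1 against 2.27 and 2.75. The integrin-linked kinase Ilk differed by -1.48, and talin 1, Tln1, by -0.60, which was 0.033 in TPM as deposited.

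Of 11 mechanosensitive channel genes, 7 were higher and 3 lower, with a median of 0.87, and 6 and 3 with a median of 0.54 after the correction. The stretch-gated channels Piezo1 and Piezo2 went opposite ways. Piezo1 (chr8:122481698-122551329) had levels of 19.5 and 21.8 against 42.3 and 44.6, a difference of -1.04 ± 0.11 (limma, adjusted p = 0.000184) and of -2.02 after the correction. Piezo2 (chr18:63010213-63387183) had 7.71 and 8.21 against 0.330 and 0.442, a difference of 2.69 ± 0.10 and of 1.54 after it. Neither overlapped between the cultures, as for every called gene. The cation channel Trpc1 differed by 1.70 and Tmem63a, an osmosensitive channel, by -1.39. The third lower member was the potassium channel Kcnk10 (-0.43, but 0.15 in TPM as deposited). Pkd1, polycystin 1, differed by 1.37, but its difference after the correction was 0.013 (adjusted p = 0.869).

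Collagens and other fibrous matrix genes were more often higher than lower before the correction and not after it. Of 36 tested, 23 were higher and 7 lower, with a median of 0.65. In TPM as deposited 27 were higher and 1 lower. After the correction 11 were higher and 15 lower, with a median of 0.014, and the median transcript of the list was 5872 bases long. The collagen I and VI chains named here were higher with and without the correction. Col1a2, a chain of collagen I (chr6:4505697-4541543), had levels of 550.2 and 571 against 87.4 and 110.0, a difference of 2.50 ± 0.13 (limma, adjusted p = 5.53e-06) and of 2.02 after the correction. Col1a1, the other chain, had 380.2 and 409 against 133 and 163, a difference of 1.42 ± 0.15 and of 0.77 after it. Col6a3 and Col6a2, chains of collagen VI, had 20.2 and 21.7 against 0.123 and 0.0489 and 92.0 and 95.8 against 16.2 and 18.6. MGS was the higher culture in each. Fbn2, fibrillin 2, had 30.8 and 33.7 against 1.59 and 2.32. Col1a1 and Col1a2 are also markers of meningeal fibroblasts, of which 13 of 14 were higher in MGS, and the part of such cells in the collagen result was not tested. Fn1, fibronectin (chr1:71585473-71653234), had 805 and 857 against 524 and 736 and was not called (0.42, adjusted p = 0.0755). Its call depended on the setting: it was lower after the correction (-0.50, adjusted p = 0.00278) and higher in TPM as deposited (1.05), under quantile normalization (1.35), with a replicate block (0.42, adjusted p = 0.0492) and without CV replicate 2 (0.66). Sparc, a collagen-binding protein, Loxl2, a crosslinking oxidase, and Thbs1, thrombospondin 1, were lower at -0.95, -0.81 and -0.81. In TPM as deposited they stood at -0.32, -0.18 and -0.18, and none was called. Under quantile normalization Sparc stood at 0.16 and Thbs1 at -0.23, and neither was called. The corrected differences of Sparc, Loxl2 and Thbs1 were -0.74, -1.28 and -1.38.

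Among proteoglycans and their linkers, 15 of 23 were higher and 4 lower, with a median of 0.70, and 13 and 8 with a median of 0.56 after the correction. Several members of brain matrix and of perineuronal nets were among the higher ones. Tnr, tenascin R, which crosslinks these nets (chr1:159523769-159924922), had levels of 55.5 and 62.9 against 0.135 and 0.272, a difference of 5.64 ± 0.16 (limma, adjusted p = 8.31e-07). Acan, aggrecan, had 8.56 and 9.27 in MGS and was listed at 0 in both CV libraries. Vcan, Ncan and Hapln1, which encode versican, neurocan and a link protein, differed by 3.04, 2.97 and 2.63. Lum, lumican, a small proteoglycan of fibroblasts, had 57.3 and 54.5 against 0.906 and 1.60, and Dcn, decorin, another, had 463 and 429 against 17.4 and 22.8. Both were low in CV. The lower members were Gpc4, a glypican with 108 and 108 against 386 and 383, and Fmod (-0.71), Gpc1 (-0.72) and Sdc4 (-0.95).

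Of 23 matrix proteases and their inhibitors, 12 were higher and 7 lower, with a median of 0.35 and of 0.23 after the correction. The macrophage elastase Mmp12 had levels of 0.757 and 0.773 against 8.51 and 10.6, whereas Adamts9, a protease that cuts proteoglycans, had 27.6 and 27.3 against 3.27 and 3.81. In the list of TGF-beta and BMP response genes 13 of 26 were not called, 8 were higher and 5 lower, with a median of 0.019 that was -0.10 after the correction and -0.11 without CV replicate 1. The lower members numbered 11 after the correction and 9 without CV replicate 1. The ligand Tgfb1 differed by -1.70, its relative Tgfb2 by 1.69, the latency proteins Ltbp2 and Ltbp1 by -2.27 and -0.82 and the secreted target Tgfbi by -1.53. Bmp7, a ligand, had 98.0 and 110.0 against 7.04 and 9.36, and Bmpr1b, a BMP receptor, 18.9 and 18.97 against 1.57 and 2.87. The BMP targets Id1, Id2 and Id3 were not called, at -0.71, -0.047 and 0.05, and Id4 was higher at 2.17. After the correction Id2 and Id3 were higher too, at 0.27 and 0.55, as they were in TPM as deposited (0.59 and 0.68).

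Genes by which astrocytes act on synapses were more often higher than lower. Of 20 tested, 12 were higher and 4 lower, with a median of 0.78, and 9 and 5 with a median of 0.11 after the correction. Sparcl1, hevin, which promotes excitatory synapses (chr5:104079109-104114088), had levels of 1098 and 1046 against 84.6 and 97.5, a difference of 3.55 ± 0.12 (limma, adjusted p = 1.30e-06). Sparc, its antagonist, Thbs1 and Gpc4 were lower, as given above, and so was the cytokine Tnf (-0.40, but 0.22 in TPM as deposited and not called after the correction). Nlgn1, the synaptic adhesion protein neuroligin 1, had 7.99 and 7.84 against 1.64 and 2.59, a difference of 1.53 ± 0.22.

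The listed potassium channel genes were higher with 1 exception. Kcnk10, given above as lower, is not on this list. Of 16 tested, 15 were higher and Kcnk1 was not called (0.33, though higher after the correction), with a median of 1.34. After the correction 13 were higher and 1 lower, with a median of 0.92. Kcnn3, a calcium-activated channel, had levels of 13.9 and 14.3 against 0.655 and 0.930, a difference of 3.08 ± 0.16. Kcnj16, a partner of the glial channel Kir4.1, had 17.2 and 16.9 against 1.12 and 2.30, and Kcnj10, Kir4.1 itself, differed by 1.32. The voltage-gated channel Kcnd3 and its binding protein family member Kcnip3 differed by 1.36 and 1.45.

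Hedgehog, Notch and Wnt genes were more often higher than lower. In the hedgehog pathway 9 of 12 were higher and 1 was lower, with a median of 1.16, and 7 and 3 with a median of 0.87 after the correction. The lower member was the ligand Shh, with 2.20 and 2.37 against 14.3 and 17.2. The receptor and target gene Ptch1 had 34.3 and 37.3 against 1.27 and 5.43, a difference of 3.27 ± 0.42. Ligand and receptor thus went opposite ways. The target Gli1 differed by 1.56, the effector Gli2 by 2.09 and the inhibitor Sufu by 1.66. In the Notch pathway 12 of 17 were higher and 3 lower, with a median of 0.96, and 11 and 5 with a median of 0.82 after the correction. The ligand Jag2 differed by 1.95, the receptors Notch1 and Notch2 by 1.44 and 1.94, and the targets Hey2 and Nrarp by 1.71 and 1.66. The lower members were the target Hes1 (-1.59), the ligand Jag1 (-0.45) and the receptor glycosylase Lfng (-0.36), and the last 2 stood at 0.13 and 0.27 in TPM as deposited. In the Wnt pathway 14 of 22 were higher and 3 lower, with a median of 0.78, and 12 and 4 with a median of 0.35 after the correction. The inhibitors Nkd1, Sfrp2 and Wif1 differed by 3.40, 2.98 and 2.07, the coreceptor Lrp6 by 1.36, and the target Axin2 was not called (0.28). The lower members were the ligand Wnt4 (-1.34), the transcription factor Tcf7 (-1.03) and the inhibitor Sfrp1 (-0.81).

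Of 31 axon guidance genes 15 were higher and 6 lower, with a median of 0.47, but 10 and 14 with a median of -0.16 after the correction. Without CV replicate 1 the median was 0.16, with 10 lower. Sema3d, a secreted semaphorin, had levels of 31.6 and 30.4 against 0.344 and 0.545, a difference of 4.47 ± 0.13 and of 3.95 after it. The receptor Robo1 differed by 3.37 and the semaphorins Sema6d and Sema3e by 2.20 and -1.84. Robo1 and Sema6d were thus higher and Sema3e lower.

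Growth factor genes differed gene by gene, with 7 of 23 higher and 12 lower, a median of -0.50, of -0.22 after the correction and of -0.022 in TPM as deposited. Igf2, a fetal growth factor that meninges and choroid plexus also make (chr7:142650768-142661035), had levels of 699 and 691 against 61.1 and 64.3, a difference of 3.45 ± 0.11 (limma, adjusted p = 9.14e-07). H19, the noncoding RNA imprinted beside it (chr7:142575532-142578146), had 892 and 914 against 36.9 and 28.7, a difference of 4.75 ± 0.18. Both were higher in MGS. Lif, a cytokine that drives astrocyte reactivity, had 1.94 and 2.24 against 22.9 and 27.1. Igf1, which macrophages also make, had 5.81 and 5.14 against 41.7 and 40.4. CV was the higher culture for both. Vegfa, the vascular growth factor, had 91.5 and 95.1 against 17.3 and 23.1. Igfbp2, an IGF binding protein of immature astrocytes, had 1180.4 and 1310.3 against 18308 and 10664, with CV replicate 1 the highest. Over the 14 genes of the IGF axis, 6 were higher and 7 lower, with a median of -0.11. After the correction 4 were higher and 9 lower, with a median of -1.01. The median was 0.49 in TPM as deposited, 0.18 under quantile normalization and 0.075 without CV replicate 2.

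Proliferation genes were lower in MGS. Of 35 cell cycle genes, 30 were lower and the other 5 were not called, with a median of -1.08. After the length and GC correction 33 were lower, and in TPM as deposited 18 were lower and 1 higher, with a median of -0.46. Ccnd1, cyclin D1, which carries growth signals into the cell cycle (chr7:144929931-144939925), had levels of 132 and 138 against 1620.3 and 1644, a difference of -3.59 ± 0.10 (limma, adjusted p = 8.31e-07), so that it was 12.03-fold higher in CV. Birc5, survivin, had 21.6 and 18.6 against 106 and 59.7, and Ube2c, a ubiquitin enzyme of mitosis, 44.8 and 42.3 against 162 and 124. Each was lower in both MGS libraries. Cenpa, the centromere histone, differed by -1.57. The members not called were Bub1, Cenpe, Cenpf, Kif11 and Ccne2, with differences from -0.56 for Bub1 to 0.30 for Kif11, and Bub1, Cenpe and Cenpf were lower after the correction. Mki67, which encodes the Ki-67 antigen, had 18.6 and 18.4 against 22.9 and 26.4, a difference of -0.39 ± 0.15 (limma, adjusted p = 0.0489) that was -1.49 after the correction and 0.21 in TPM as deposited (adjusted p = 0.453).

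Of 20 p53 target genes, 16 were lower and 1 was higher, with medians of -1.06 and, corrected, -1.06. The counts in TPM as deposited were 8 lower and 2 higher, with a median of -0.45. Cdkn1a, the cell cycle inhibitor p21, had levels of 156 and 163 against 584 and 535, and Gdf15, a stress cytokine, 6.58 and 7.95 against 84.5 and 48.4. So an activator and an inhibitor of the cell cycle, Ccnd1 and Cdkn1a, both stood higher in CV. The higher member was the growth inhibitor Btg2 (0.47). The cell death genes Bax and Pmaip1 differed by -1.995 and -2.35. Replication-dependent histone genes have short transcripts and near-identical copies and are uncertain as single genes. Of 13 tested, 12 were lower and Hist1h1b was higher (0.73), and 9 were lower after the correction and 6 in TPM as deposited. Hist1h1b was not called under quantile normalization (0.17) or with a variance of its own for each group.

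Genes of the ribosome and the respiratory chain, most of which have short transcripts, were lower as groups. Of 52 ribosomal protein genes listed, 51 were lower and Rpl26 was not called (-0.54). Rps27, among the largest rises at 6.01 and uncertain because of its near-identical copies, is not on this list. The list median was -1.34, and it was -0.81 after the correction, -0.92 without CV replicate 1 and -1.73 without CV replicate 2. In TPM as deposited 46 were lower with a median of -0.70, and under quantile normalization 30 with a median of -0.41. Their summed level was 36965 and 35978 scaled TPM in MGS, and 126095 and 68332 in CV, so CV replicate 1 lay far above CV replicate 2. The 4 with the largest falls were Rpl35, Rps19, Rps21 and Rps24, at -1.79, -1.72, -1.68 and -1.66. Of 45 nuclear-encoded respiratory chain genes 37 were lower and the other 8 were not called, with a median of -1.04 that was -0.54 after the correction, -0.59 without CV replicate 1 and -1.37 without CV replicate 2. In TPM as deposited 23 were lower and 4 higher, and under quantile normalization 17 and 6, with a median of -0.26. Ndufa2, a small subunit of complex I, had levels of 264 and 284 against 1196 and 456. CV replicate 1 was again far above replicate 2.

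Lysosomal genes were lower too, with 30 of 38 lower and 2 higher, a median of -1.07, and 35 lower with a median of -1.03 after the correction. The median in TPM as deposited was -0.50, with 26 lower. Among the largest falls were Ctss and Cd68, at -4.42 and -2.68, which are also on the microglia list. The protease Ctsc differed by -2.34. Ctsd and Lipa, a protease and a lipase of most cells, differed by -2.11 and -2.29. The higher members were the protease Ctsk (1.66) and the sterol transporter Npc1 (0.73). The microglia markers moved with this list, and their part in it was not tested.

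Lipid genes took another course. Of 21 fatty acid genes 11 were higher and 3 lower, with a median of 0.60, and 10 and 4 with a median of 0.22 after the correction. The desaturase Scd2 had levels of 1439.8 and 1447 against 467 and 573, and Scd1 had 246 and 244 against 94.6 and 125. The desaturase Fads2 differed by 1.40. The lower members were the enzymes of fatty acid oxidation Acadvl (-0.54), Hadhb (-0.37) and Hadha (-0.29), none of which stayed below 0 in TPM as deposited, where they stood at 0.090, 0.26 and 0.34. Fasn, fatty acid synthase, differed by 1.34 and, corrected, by 0.20 (adjusted p = 0.0513). Of 24 cholesterol synthesis genes 14 were lower and 5 higher, with a median of -0.39 and, corrected, -0.40. They were 4 lower and 7 higher in TPM as deposited, with a median of 0.23. Fdps, farnesyl diphosphate synthase, had 73.5 and 66.9 against 272 and 174, and the enzymes Mvk and Ebp differed by -1.44 and -1.35. The higher members were Stard4, a sterol carrier with 16.4 and 15.3 against 3.58 and 7.28, the transcription factor Srebf2 (0.81, corrected 0.34 and not called) and the enzymes Hmgcs1 (0.71), Lss (0.38, but -0.38 after the correction) and Dhcr7 (0.29).

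For glycolysis and hypoxia genes 10 of 24 were higher and 8 lower, with a median of 0.15 that was 0.26 after the correction and -0.053 without CV replicate 2. Under quantile normalization 16 were higher and 2 lower. Pdk1 and Egln3, both induced by hypoxia, differed by 1.62 and 1.27, and Adm, adrenomedullin, by -2.14. Gapdh, often used as a reference gene, had levels of 194 and 185 against 325 and 268, a difference of -0.64 ± 0.14 that was 0.030 under quantile normalization. Malat1, a long noncoding RNA of the nucleus, had 450.2 and 466 against 175 and 269.9, a difference of 1.07 ± 0.20 and of 0.41 after the correction.

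Immediate early genes, which calcium and growth signals switch on quickly, were higher for 13 of 22 and lower for 5, with a median of 0.67, and 14 and 4 with a median of 0.69 after the correction. Nr4a1, an orphan nuclear receptor (chr15:101266846-101274794), had levels of 246 and 262 against 17.7 and 14.8, a difference of 3.89 ± 0.13 (limma, adjusted p = 1.20e-06). Its relatives Nr4a2 and Nr4a3 differed by 3.53 and 2.84, and the transcription factors Egr1, Egr3 and Fos by 1.70, 3.74 and 1.63. The lower members were Ier5 (-1.97), Fosl1 (-1.85), Klf2 (-1.02), Arc (-0.95) and Atf3 (-0.52, but 0.10 in TPM as deposited).

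Stress genes were more often lower than higher on the scaled values. ATF4 and unfolded protein response genes were lower for 14 of 22 and higher for 3, with a median of -0.58 that was -0.38 after the correction and 0.049 in TPM as deposited, where 6 were lower and 6 higher. NRF2 targets and metallothioneins were lower for 11 of 18 and higher for 2, with a median of -0.59 that was -0.52 after the correction and 0.036 in TPM as deposited, where 6 were lower and 5 higher. Heat shock genes were lower for 8 of 14 and higher for 3, with a median of -0.33 that was -0.24 after the correction. In TPM as deposited and under quantile normalization 2 were lower and 7 higher, with medians of 0.30 and 0.34. Sdf2l1 and Mthfd2, an endoplasmic reticulum protein and a mitochondrial folate enzyme, differed by -1.78 and -1.66, and Ddit3, the transcription factor CHOP, by -1.32. The ferritin genes Fth1 and Ftl1 differed by -2.12 and -2.48. Hmox1, haem oxygenase, had levels of 88.0 and 90.0 against 633 and 565. The metallothioneins Mt1, Mt2 and Mt3 were not called, at 0.84, 0.52 and -0.23, but Mt1 and Mt2 were higher after the correction (1.42 and 1.16) and in TPM as deposited (1.48 and 1.16). Slc7a11, the cystine transporter on both of the first lists, was higher with 52.95 and 53.6 against 7.22 and 6.74. Chac1 (0.64) and Psat1 (0.58) of the ATF4 list and Gclc (0.59), an enzyme of glutathione synthesis, were higher too. Gclc was not called with a pseudocount of 0.1, without the filter or from the day 32 libraries alone. Chac1 was not called under quantile normalization (0.13). The small heat shock genes Cryab and Hspb8 went opposite ways, at -1.55 and 1.14, and the chaperone Hspe1 differed by -1.55. The inducible chaperones Hspa1a and Hspa1b, near-identical genes, were higher at 0.76 and 0.58. Neither was called with a variance of its own for each group.

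**Figure D4:**
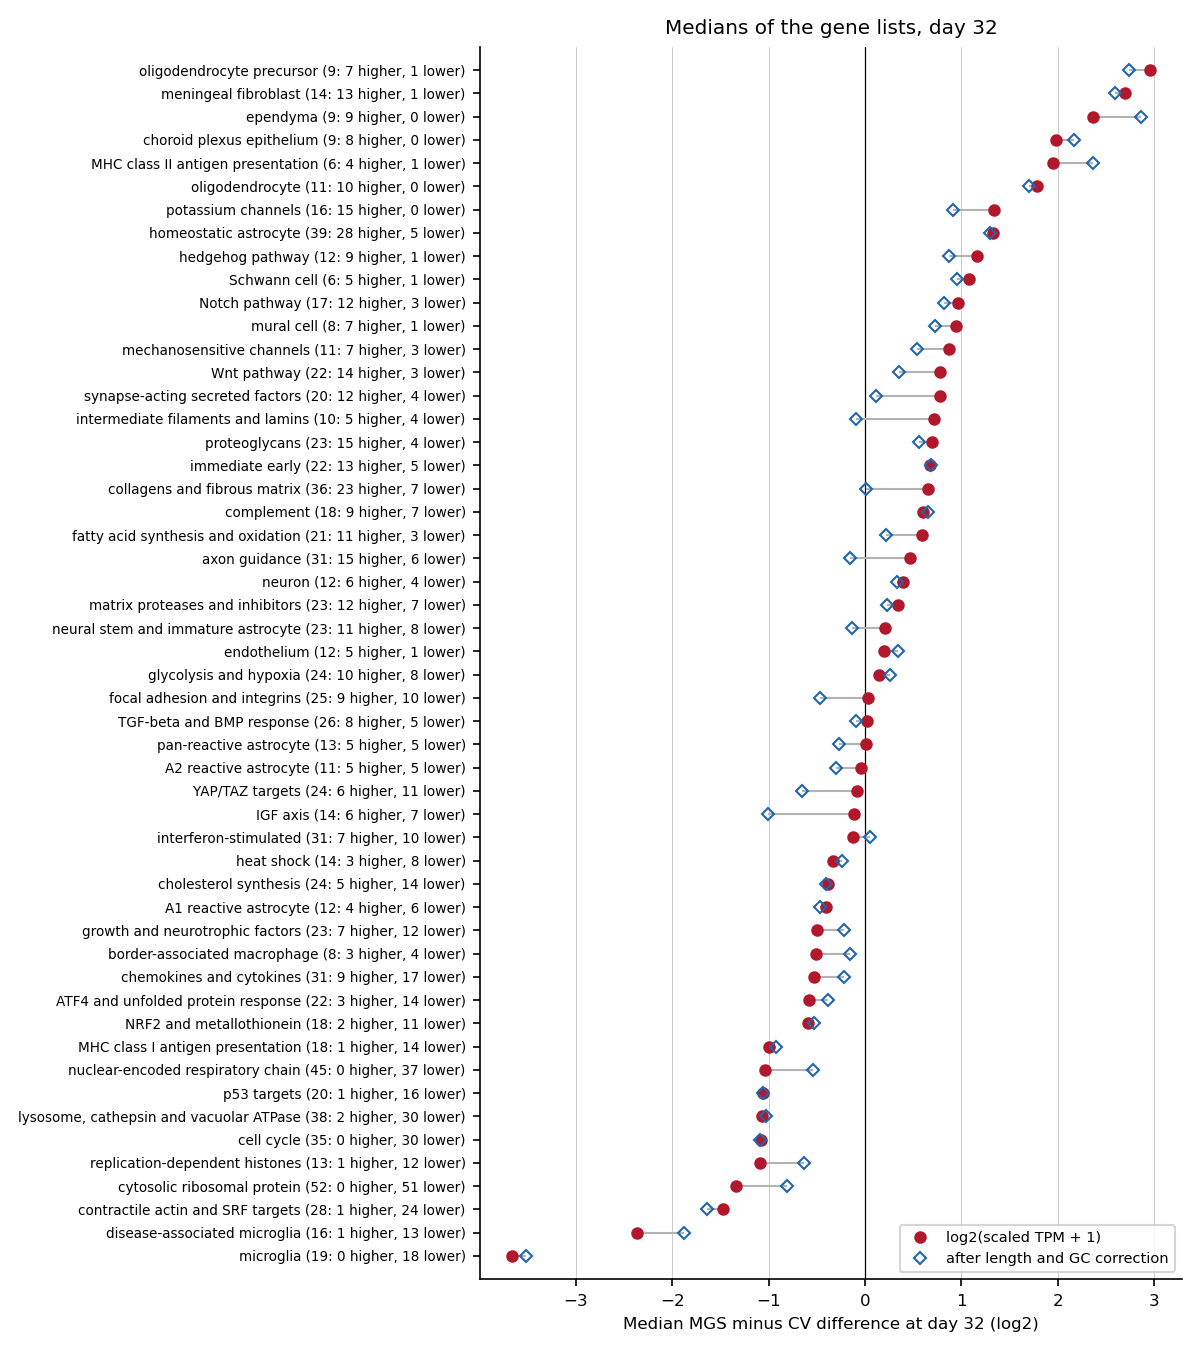
Median MGS minus CV difference at day 32 (log2) of the 52 gene lists, before (red) and after (blue) the length and GC correction, with the number of members tested, higher and lower before it. Lists at the ends, such as microglia and contractile actin at the bottom and oligodendrocyte precursor at the top, keep their side, whereas collagens, axon guidance and synapse-acting factors move down to or past 0.2.

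Markers of microglia, the resident macrophages of the brain, were many times lower in MGS. Of 19 tested, 18 were lower and Ptprc was not called, with a median of -3.66 and, corrected, -3.51. Siglech and Spi1, the other 2 on the list, were under the filter on low values, and no marker tested was at 0 in both libraries of a culture. Lyz2, lysozyme of macrophages (chr10:117277541-117282272), had levels of 553 and 534 against 13334 and 11949, a difference of -4.54 ± 0.12 (limma, adjusted p = 8.31e-07). C1qb, a chain of complement C1q made by microglia (chr4:136880145-136886177), had 125 and 124 against 2905 and 1881, a difference of -4.22 ± 0.21. Trem2, a lipid receptor of microglia, had 20.7 and 23.6 against 596 and 348. Aif1, which encodes the stain IBA1, had 6.14 and 5.74 against 225 and 132. Both CV libraries were above both MGS libraries for these markers. Csf1r, the receptor that keeps microglia alive, and Tmem119, a marker specific to them, differed by -3.56 and -2.66. Ptprc, CD45, had 3.19 and 3.06 against 4.70 and 30.5, with CV replicate 1 near the MGS level (adjusted p = 0.0557), and was lower after the correction (-2.12, adjusted p = 0.0134).

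Of 16 genes of disease-associated microglia 13 were lower and 1 was higher, with a median of -2.37 and, corrected, -1.88. The higher one was the tetraspanin Cd9 (0.46). Spp1, osteopontin (chr5:104435111-104441053), had levels of 209.7 and 191 against 5545 and 5232, a difference of -4.74 ± 0.12 (limma, adjusted p = 7.20e-07). Clec7a, a phagocytic receptor, had 0.540 and 0.389 against 15.5 and 19.6. Among 8 markers of border-associated macrophages 3 were higher and 4 lower, with a median of -0.51 that was -0.15 after the correction and 0.10 in TPM as deposited. The coagulation factor F13a1, the hyaluronan receptor Lyve1 and the mannose receptor Mrc1, at 2.86, 2.34 and 0.62, were higher in MGS, though Mrc1 was not called after the correction (0.21, adjusted p = 0.175). Ms4a7, a membrane protein, Folr2, a folate receptor, Pf4, platelet factor 4, and Stab1, a scavenger receptor, were lower at -3.66, -3.40, -1.17 and -0.70.

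Antigen presentation genes split by class. Of 18 class I genes 14 were lower and 1 was higher, with a median of -0.99, and 16 lower with a median of -0.93 after the correction. The class I median in TPM as deposited was -0.36, with 10 lower. The higher one was H2-Q6, which has near-identical relatives and is uncertain. B2m, the light chain of class I, had levels of 581 and 545 against 2124 and 1967, a difference of -1.86 ± 0.14. The immunoproteasome genes Psmb8, Psmb9 and Psmb10 differed by -2.24, -1.52 and -1.55. Of 6 class II genes 4 were higher and 1 was lower, with a median of 1.95 and, corrected, 2.36. H2-Ab1, a class II chain (chr17:34263227-34269418), had 27.0 and 26.4 against 1.83 and 1.45, a difference of 3.39 ± 0.28 (limma, adjusted p = 4.91e-05), and its partner H2-Aa had 14.5 and 15.7 against 0.723 and 0.140. Cd74, the invariant chain, had 32.9 and 32.7 against 7.21 and 3.36, and H2-Eb1 differed by 1.41. The lower member was H2-DMa, a chain of the peptide loader (-0.87). Class II chains were thus higher in the MGS libraries, in which the microglia markers were lower.

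Complement genes divided, with 9 of 18 higher and 7 lower and medians of 0.60 and, corrected, 0.65. The C1q chains and the receptors C3ar1 and C5ar1, known from microglia, were lower, the receptors at -3.07 and -2.51. C3, Cfb, C1s and the inhibitor Serping1, which astrocytes and fibroblasts are known to make, were higher, at 1.85, 1.61, 1.62 and 1.25. C4b and C4a, at 3.22 and 3.25, share near-identical sequence and are uncertain as single genes. Of 31 chemokines and cytokines 17 were lower and 9 higher, with a median of -0.53 that was -0.22 after the correction and -0.022 in TPM as deposited. Il1b, the inflammatory cytokine of myeloid cells, had levels of 3.93 and 3.33 against 59.9 and 49.1, and the macrophage chemokines Ccl9 and Ccl6 differed by -4.00 and -3.72. Cxcl12, a chemokine of stromal cells, was higher at 2.98. Of 31 interferon-stimulated genes 7 were higher, 10 lower and 14 not called, with a median of -0.12 that was 0.44 in TPM as deposited, 0.048 after the correction and 0.0076 without CV replicate 1. Ifi27l2a, Bst2 and Oas1a were lower at -3.51, -2.16 and -2.15, and Cmpk2 was higher at 1.64. The microglia markers moved with the lower genes of all these lists, and their part was not tested.

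Markers of the ventricle lining, the choroid plexus and the meninges were mostly higher in MGS. For ependyma, the ciliated lining of the ventricles, all 9 markers tested were higher, with medians of 2.37 and, corrected, 2.87, and their sum was 1368 and 1335 in MGS and 433 and 328 in CV. Ccdc153, a cilium gene, had levels of 126 and 116 against 3.15 and 4.43. Hydin, a gene of the cilium's central pair, had 9.81 and 10.8 against 0.0231 and 0.00958, and Tekt1, a tektin, differed by 3.17. For choroid plexus epithelium 8 of 9 were higher, with medians of 1.99 and, corrected, 2.17, and Folr1 was not called (0.22). Ttr, transthyretin, the thyroxine carrier made by this epithelium (chr18:20665250-20674326), had 1489 and 1465 against 111 and 69.6, a difference of 4.05 ± 0.25 (limma, adjusted p = 1.37e-05). The water channel Aqp1 and the channel protein Clic6 differed by 3.17 and 2.80, and Calml4 by 1.99. For meningeal fibroblasts 13 of 14 were higher, with medians of 2.70 and, corrected, 2.60. The exception was Igfbp2, which astrocytes also make and which was lower. Summed over the list with it, the level was 12278 and 12367 in MGS and 18824 and 11207 in CV, a sum in which Igfbp2 weighs most in CV and Ptgds in MGS.

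For oligodendrocytes, the myelin-making glia, 10 of 11 markers were higher and Opalin was not called (0.15), with medians of 1.78 and, corrected, 1.70, and with 3 markers listed at 0 in both CV libraries. The myelin lipid enzyme Ugt8a had levels of 5.78 and 5.54 against 0 and 0, and the enzyme Aspa differed by 2.12. For their precursors 7 of 9 were higher and 1 was lower, with medians of 2.96 and, corrected, 2.74. Pdgfra, the receptor that defines them (chr5:75152291-75198204), had 62.6 and 63.8 against 0.870 and 0.886, a difference of 5.10 ± 0.10 (limma, adjusted p = 6.45e-07). Sox10, the lineage's transcription factor (chr15:79154913-79164490), had 24.2 and 25.7 against 0.112 and 0.166, a difference of 4.51 ± 0.10. Both were close to absent in CV. Lhfpl3, Gpr17 and Cspg4 differed by 4.78, 3.43 and 1.85. Olig2, which astrocyte precursors share, was not called (0.04), and Olig1 was lower (-1.18). The precursor sum, in which Olig1 weighs most, was 564 and 619.7 in MGS and 582 and 461 in CV.

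Neuron and endothelial lists were mixed, and the Schwann cell list was mostly higher. Neuron markers gave 6 higher and 4 lower of 12, with medians of 0.39 and, corrected, 0.33, and sums of 123 and 119 in MGS and 266 and 222 in CV. Stmn2, a growth cone protein, had levels of 12.5 and 10.6 against 202 and 156, the other lower members were Nefm (-1.74), Nefl (-0.48) and Syt1 (-0.53), and Elavl3 and Map2 were higher at 2.46 and 1.26. The endothelial list gave 5 higher and 1 lower of 12, with a median of 0.20 that was 0.34 after the correction and -0.13 under quantile normalization. Its defining markers Cldn5, with 0.0435 and 0.0877 against 0 and 0, and Pecam1, with 0.0561 and 0.0566 against 0.107 and 0.0830, were at or near 0. Cdh5, Kdr, Vwf, Egfl7 and Tek were higher at 2.95, 1.48, 1.25, 1.15 and 0.77, though Vwf was not called after the correction (0.25, adjusted p = 0.131), and Slco1a4 was lower at -1.27. The Schwann cell list gave 5 higher and 1 lower of 6, with a median of 1.08 and, corrected, 0.96, and it shares Sox10 with the oligodendrocyte lineage. Its members Drp2 and Prx differed by 1.21 and -1.17, and Egr2, also an immediate early gene, by 1.89. The part of these cell types in the differences between the cultures was not tested.

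**Figure D5:**
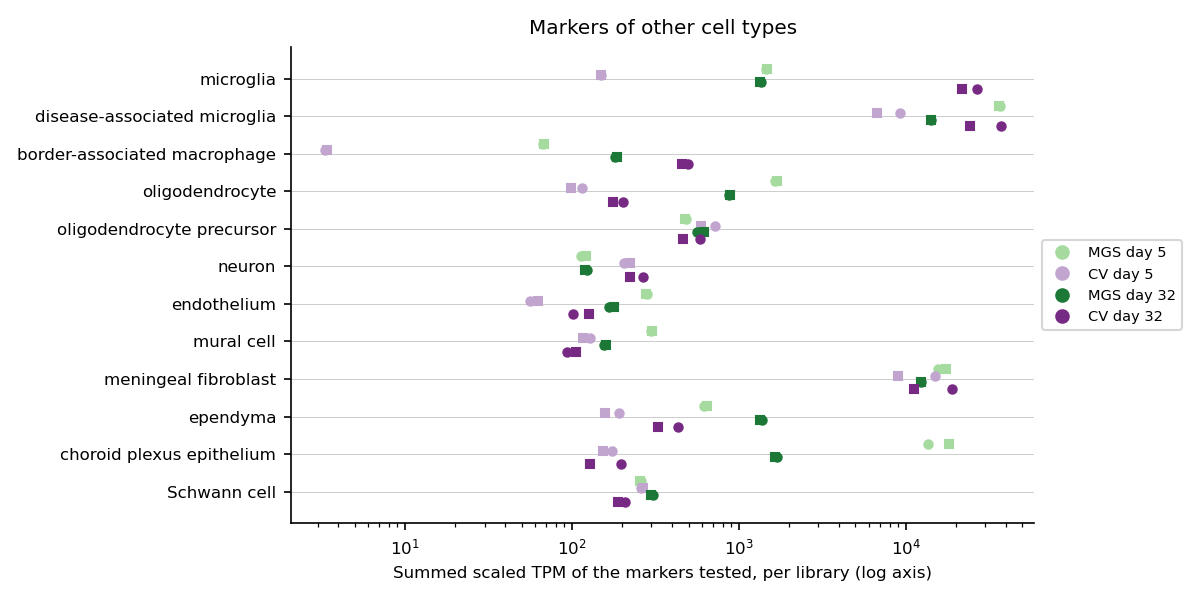
Summed scaled TPM of the tested markers of 12 cell types in each of the 8 libraries, on a log axis; circles are replicate 1 and squares replicate 2. The microglia sums at day 32 are 1363 and 1342 in MGS and 26696 and 21719.7 in CV, and they are lowest in CV at day 5, at 149 in each library.

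The difference between the cultures was not the same at day 5 and day 32. In the same model 7825 genes (52.6%) differed between MGS and CV at day 5, 28.6% higher and 24.0% lower. Of the 5704 genes called on both days, 3850 had the same direction and 1854 the opposite one. A test of the change itself, the difference at day 32 minus that at day 5, called 8966 genes (60.3%), with 4267 gains for MGS (28.7%) and 4699 losses (31.6%). The length dependence also differed between the days: at day 5 the median difference was 0.27 in the shortest eighth and -0.32 in the longest, the reverse of day 32.

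All 19 microglia markers lost ground in MGS by this test. Their median difference was 3.14 at day 5 and -3.66 at day 32. Their sum in CV was 149 in each library at day 5 and 26696 and 21719.7 at day 32, while in MGS it was 1464 and 1486 at day 5 and 1363 and 1342 at day 32. The change in the difference thus came with a change in the CV libraries, while the MGS sums of both days lay close together. Class I antigen presentation went from a median of 1.28 to -0.99, with 16 losses of 18. Complement gave 15 losses of 18 and the interferon-stimulated list 27 of 31. The listed ribosomal protein genes gave 50 losses of 52, while Rps27, which is not on that list, gained (8.27).

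Homeostatic astrocyte genes gave 20 gains and 5 losses of 39, their median going from 0.69 at day 5 to 1.33 at day 32. Aqp4 differed by 0.18 at day 5 and by 2.48 at day 32, a change of 2.29 ± 0.36 (limma, adjusted p = 0.00186). Slc1a2 differed by 0.89 and 2.90, a change of 2.02 ± 0.18. Gfap differed by 3.30 and 3.04, a change of -0.26 ± 0.30 that did not pass the test (adjusted p = 0.473). Cholesterol synthesis gave 19 gains of 24, from a median of -2.04 to -0.39, and potassium channels 14 gains of 16, from 0.13 to 1.34. Contractile actin genes gave 17 losses of 28, from a median of -0.62 to -1.47. For Acta2 the difference was -3.23 at day 5 and -3.72 at day 32, a change of -0.50 ± 0.26 (adjusted p = 0.137) that did not pass the test.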

How the data were processed

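Total RNA was extracted with TRIzol and made into libraries with a directional NEB Ultra II kit, per the labels' protocols. The submitters' processing notes name bcl2fastq, HISAT2 2.1.0, StringTie 1.3.4d and the builds hg38 and mm10 without roles; the annotation and the use of strand are not given in the sources used here, so overlapping, antisense and near-identical genes are uncertain. The authors deposited coverage, FPKM and TPM per gene and library, per the file headers, and a TPM table of the whole series. Coverage (a signal, per the file headers) gave only depth, and FPKM only an alternative.

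TPM values were rescaled by median of ratios over 14499 genes and tested as log2(TPM + 1). limma 3.58.1 in R 4.3.3 fitted 4 group means to all 8 libraries (4 residual degrees of freedom, trended empirical Bayes, two-sided). Lengths and GC content came from GENCODE transcripts of GRCm38, for 99.2% of genes tested, and the correction used mgcv 1.9.3. On data simulated for the day 32 comparison, over 14866 genes, 58% of 100 genes changed by 1 log2 and 93% of 100 changed by 2 were recovered, with 7 false calls. The simulation changed only these genes, gave all groups the same spread for a gene and held no length dependence. It therefore does not measure how many of the real day 32 calls are false. Members, gene lists and tests were chosen with earlier results of these data known. The text names the 12 largest rises and falls (at least 5 scaled TPM in the higher group, no overlap, no model names), up to 4 genes of each of the 52 lists, 31 genes in any case, the 8 largest changes between days each way and the 8 largest each way among transcripts of 2115 to 4751 bases. Other genes beside these were chosen after their values were seen. Some genes that this rule names are not reported here.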

Additional observations from a re-analysis of the deposited data

Results flagged for a closer look

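The difference between MGS and CV changed between day 5 and day 32 for 8966 genes (60.3% of those tested). This was by limma's test of that change (Benjamini-Hochberg adjusted p under 0.05), with 2 libraries in each group. The length dependence also ran opposite ways on the 2 days, and its part in these changes was not tested. The 8 largest changes each way are given here on the log2 scale. MGS gained most in Rps27, whose change was 8.27 ± 2.60, and in Pcp4, a calmodulin-binding peptide, whose change was 7.92 ± 0.19 (from -4.49 at day 5 to 3.43 at day 32). The levels of Rps27 in CV at day 5, 7.86 and 1008 scaled TPM, are far apart. Myoc changed by 6.56 ± 0.20, from levels at day 5 of 9.59 and 9.55 in MGS and 8.80 and 6.65 in CV. Itgb8 changed by 5.59 ± 0.52, from -1.76 to 3.83, and Xylt1, the enzyme that starts glycosaminoglycan chains, by 5.57 ± 0.25. The other gains were 5.46 ± 0.60 for Prrg4, 5.28 ± 0.22 for Tnr and 5.15 ± 0.17 for Inpp5j, a phosphoinositide phosphatase.

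MGS lost most in Lcn2, whose change was -10.71 ± 0.32. Its levels at day 5 were 701 and 685 scaled TPM in MGS and 0.674 and 0 in CV. At day 32 they were 3.29 and 2.77 in MGS and 12.4 and 10.8 in CV. The next 7 losses were in genes of macrophages and microglia. Cd72 changed by -9.74 ± 0.22, Spp1 by -9.45 ± 0.17 and Lyz2 by -9.05 ± 0.17. The C1q chains C1qb, C1qa and C1qc changed by -8.93 ± 0.30, -8.72 ± 0.30 and -8.26 ± 0.20, and Ly86 by -8.33 ± 0.23. Each of these 7 was higher in MGS at day 5 and higher in CV at day 32.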

How the results depend on the processing

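The number of genes called at day 32 (10398) changed to 10054 in TPM as deposited, 10089 after quantile normalization, 10420 from FPKM, 10424 with rows of 1 gene ID summed, 10235 with a pseudocount of 0.1, 10963 without the filter, 9036 with a filter at 5 TPM, 9012 from the day 32 libraries alone, 9182 with a variance for each group and 10710 after the length and GC correction. In TPM as deposited 78.1% of the called genes were higher, against 50.2% with scaling, and in the change between days 80.2%. Vim, Glul, Stat3 and Sparc were among the named genes no longer called from the day 32 libraries alone. Leaving out 1 library gave 8075 to 11401 genes at day 32 and 6449 to 10871 for the change between days. The length trend (longest minus shortest eighth, 1.56) was 0.86 without the filter, 0.177 after the length and GC correction, 1.10 without CV replicate 1 and 1.98 without CV replicate 2. Added alternatives chosen after seeing the data, the correction without CV replicate 1 or 2, gave 10755 and 11457 genes and trends of 0.134 and 0.1998. The causes of these shifts were not tested.

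The labels do not say that replicate numbers pair libraries. Same-numbered deviations correlated at -0.054 between the cultures at day 32, 0.122 at day 5, 0.444 between CV at day 5 and day 32, 0.194 between MGS at day 5 and CV at day 32, -0.134 between MGS at day 5 and day 32 and -0.059 between CV at day 5 and MGS at day 32, so the numbers were not treated as pairs. A replicate block gave 10667 genes at day 32 and 9379 for the change between days, and with the length and GC correction 10824 and 8925.

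Directions turned for Vim (0.25, quantile), Gapdh (0.030, quantile), Mki67 (0.21, TPM as deposited), Cd44 (0.60, TPM as deposited), Yap1 (-0.10, with and without the replicate block, and -0.27 without CV replicate 2, after the length and GC correction), Fn1 (-0.50, with and without the block, -0.63 without CV replicate 1 and -0.37 without CV replicate 2), Stat3 (-0.15, with and without the block, -0.21 and -0.087 in the same order) and Pkd1 (-0.029, corrected and without CV replicate 1). Among genes named after their values were seen, TPM as deposited turned Slco1c1 (0.13), Lmnb1 (0.21), Tln1 (0.033), Kcnk10 (0.15), Id2 (0.59), Tnf (0.22), Jag1 (0.13), Lfng (0.27), Acadvl (0.090), Hadhb (0.26), Hadha (0.34) and Atf3 (0.10). Quantile normalization turned Fhl1 (0.51), Sparc (0.16), Id2 (0.76), Lfng (0.0030), Acadvl (0.011), Hadhb (0.089), Hadha (0.20) and Mt3 (0.74). The length and GC correction, with and without the replicate block, turned Plec (-0.073), Id2 (0.27) and Lss (-0.38). The correction without CV replicate 1 gave -0.18 for Plec, -0.79 for Palld, -0.18 for Axin2, -0.37 for Lss and 0.56 for Mt3, and without CV replicate 2 it gave 0.40 for Id2, 0.056 for Tnf and -0.39 for Lss. Palld was -0.26 without CV replicate 1 and 1.31 without CV replicate 2. No interval for counting error could be given because TPM holds no read counts.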
